A study of Mus musculus with 16 samples.

Results

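The genes described here are 10 markers and effectors of T cells and natural killer (NK) cells: Cd4, Cd3e, Cd8a, Ncr1, Klrb1c, Klrd1, Nkg7, Prf1, Gzma and Gzmb. They were chosen by name, and all 10 were found among the 25719 genes of the deposited table. Their RNA was measured in whole liver of 16 male mice, 1 library per mouse. WT mice of the strain C57BL6J were fed a normal chow diet (NCD, n = 4, replicates 1, 2, 3 and 5) or SSD, a diet rich in fat, fructose and cholesterol that is used to induce steatohepatitis (n = 5). Klrk1 KO mice, called KO below, lack NKG2D in every cell because the gene Klrk1 is deleted, and were also fed NCD (n = 4) or SSD (n = 3). Feeding lasted 3 weeks and started at an age of 8 to 12 weeks.

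T cells recognise antigen through a receptor that signals through the CD3 chains, and the co-receptors CD4 and CD8 divide most of them into helper and killer cells. NK cells carry no such receptor and sense their targets with inhibitory and activating receptors, among them NKG2D. Both killer T cells and NK cells store perforin and granzymes in granules, and the mouse liver is rich in NK cells, type 1 innate lymphoid cells and innate-like T cells. In whole-liver RNA these cells contribute a small share, so their genes are read at low depth. In such bulk samples fewer cells of a type and less RNA per cell cannot be told apart. CD4 is also made by some dendritic cells and other myeloid cells, and CD8 alpha by some dendritic cells.

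Values are normalized counts, that is, the reads of a gene divided by 1 factor per library. The libraries held 19892025 to 28936707 reads on genes, and within a library 1 read was worth the same in every gene. The floor was set at 3 reads, so that a mouse with no more than this is called at the floor, and it lay at 3.02 to 3.91 normalized counts in NCD-fed WT mice and at 1.99 to 2.86 in SSD-fed WT mice. Klrk1 lay between 20.1 and 71.1 in the WT mice and between 0.966 and 8.71 in the KO mice, so the genotype labels held in every library. Hepatocyte genes were abundant in every mouse, with Tat, an amino acid catabolic enzyme of hepatocytes, at 5953 or more. A list of 8 genes that leukocytes share summed to 1154 to 1401 in NCD-fed WT mice and 1688 to 4651 in SSD-fed WT mice, where replicates 1 (4651) and 4 (2612) were highest. It summed to 1140 to 1283 in NCD-fed and 1372 to 1523 in SSD-fed KO mice.

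Among the genes of the 10 with a mean of at least 10 normalized counts, Cd4 was the one that changed past the thresholds, and it fell on SSD in both genotypes, by 4.29-fold in WT and 4.0-fold in KO mice. Cd3e, the chain of the T cell receptor complex found on all T cells, did not fall with it. No gene of the 10 was called between KO and WT mice on either diet. Prf1, the perforin gene, lay under that mean and was called higher on SSD in WT mice when the minimum was lowered to 1. Klrd1, Klrb1c, Ncr1, Nkg7 and Gzma also had higher means in SSD-fed than in NCD-fed WT mice, with few reads, and were not called in either model, though Klrd1 and Nkg7 were under other settings given below.

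Between genes, levels were compared per kilobase of the gene length given with the table. Cd4 was the most abundant gene of the 10 over the 4 groups, at a mean of 53.3 normalized counts per kilobase, followed by Nkg7 at 24.5 and Klrd1 at 17.1. Gzma (11.4), Cd3e (9.08), Klrb1c (8.29) and Gzmb (6.34) came next, and Prf1 (3.12), Cd8a (2.22) and Ncr1 (2.19) were lowest. Neighbors in this order were not well separated. Cd4 lay above Nkg7 in 9 of 16 mice, Cd3e above Klrb1c in 8 and Cd8a above Ncr1 in 7, whereas Nkg7 lay above Klrd1 in 13 and Gzmb above Prf1 in 15. The order also turned on the diet at its top. On NCD, Cd4 was first and Nkg7 second in both genotypes, and on SSD Nkg7 was first, with Cd4 behind Klrd1 in WT mice and just behind Nkg7 in KO mice. How the gene lengths were derived is not stated, so the order rests on them.

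**Figure D1:**
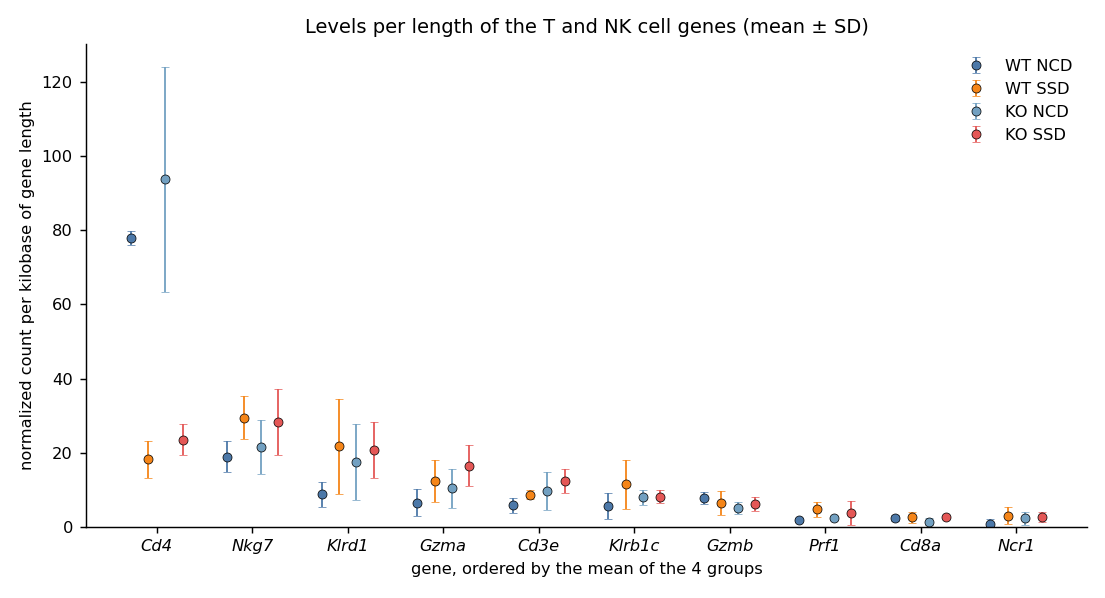
Level of each gene in normalized counts per kilobase of gene length (vertical axis), as the mean with SD over the mice of each of the 4 groups, with genes ordered by the mean of the 4 groups. Cd4 stands above the others on NCD (77.9 in WT and 93.7 in KO mice) and among them on SSD (18.2 and 23.4).

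Cd4 (ENSMUSG00000023274), on chromosome 6 of GRCm39 (124841655 to 124865184, minus strand), encodes the co-receptor of helper T cells. NCD-fed WT mice had 100.1, 106, 103 and 100.4 normalized counts in the order of their replicate numbers. In SSD-fed WT mice the values were 27.2, 20.3, 32.4, 24.0 and 15.5. NCD-fed KO mice had 147, 83.4, 95.8 and 166, and SSD-fed KO mice 35.7, 24.9 and 31.7. Every SSD-fed mouse was thus below every NCD-fed mouse, and behind these values stood 67 to 135 reads per mouse on NCD and 19 to 41 on SSD. The NCD-fed WT mice lay close together, while the NCD-fed KO mice reached from below to above them.

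The test of diet was limma's trend method on log2(normalized count + 1) over the 13091 genes whose normalized counts averaged 10 or more in the WT mice, with Benjamini-Hochberg adjustment. Calls required an adjusted p under 0.05 together with a fold change over 1.5. In WT mice Cd4 went from 102.3 ± 2.62 (SD, n = 4) to 23.9 ± 6.44 (SD, n = 5), a log2 fold change of -2.09 (SE, the standard error, 0.21, limma adjusted p = 2.62e-05). In KO mice it went from 123 ± 39.8 (SD, n = 4) to 30.8 ± 5.48 (SD, n = 3), a log2 fold change of -1.92 (SE 0.25, limma adjusted p = 0.000167). Cd4 was called lower in all 24 settings that tested it in WT mice, with log2 fold changes from -2.39 to -1.75, and in all 21 in KO mice, from -2.09 to -1.67. The exact permutation test, two-sided, gave 0.0159 in WT mice and 0.0571 in KO mice, in each case the smallest value that the numbers of mice allow.

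No difference between genotypes in the fall of Cd4 was detected. The interaction of diet and genotype over all 16 mice was 0.17 on the log2 scale (SE 0.34, limma adjusted p = 0.815). In simulated data the interaction fit recovered 19.4% of changes of log2 size 1 and 97% of those of size 2. The simulation gave every gene the same dispersion, that is, the same relative spread between mice, so these shares may differ for Cd4. Between KO and WT mice Cd4 differed by 0.21 on NCD (SE 0.20, limma adjusted p = 0.507) and by 0.38 on SSD (SE 0.27, limma adjusted p = 0.442), and it was called in neither case. With each mouse left out in turn, the interaction ranged from 0.0062 (without NCD-fed KO replicate 2) to 0.33, the difference on NCD from 0.045 (without NCD-fed KO replicate 4) to 0.37 and that on SSD from 0.24 (without SSD-fed WT replicate 5) to 0.52.

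Cd3e (ENSMUSG00000032093, chromosome 9, 44910038 to 44920925, minus strand) encodes the epsilon chain of CD3, through which the T cell receptor signals. In WT mice on NCD the values were 3.62, 8.05, 7.82 and 8.83 normalized counts, and in SSD-fed WT mice 11.3, 12.7, 10.5, 8.88 and 9.80. The WT diet groups did not overlap, with SSD above NCD, but the highest NCD-fed mouse (8.83) nearly reached the lowest SSD-fed mouse (8.88). In NCD-fed KO mice the values were 11.5, 13.7, 18.7 and 3.69, and in SSD-fed KO mice 10.6, 17.7 and 17.1. The KO diet groups overlapped over most of their range.

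Over the WT mice Cd3e was under the minimum mean of 10, so its fold change was taken from the same model with a minimum mean of 1. It was 0.57 on the log2 scale (SE 0.31, limma adjusted p = 0.187) and was not called, while the exact two-sided permutation test gave p = 0.0159. NCD-fed WT replicate 1, the lowest mouse, was at the floor with 3 reads, and without it this difference would be smaller. In KO mice the log2 fold change was 0.47 (SE 0.47, limma adjusted p = 0.488). That value rested on NCD-fed KO replicate 4, the mouse at the floor, and was 0.04 without it (limma adjusted p = 0.944). The level of Cd4 per kilobase was 13.5 times that of Cd3e in NCD-fed WT mice and 2.11 times in SSD-fed WT mice. In KO mice these ratios of group means were 9.71 on NCD and 1.91 on SSD.

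Cd8a (ENSMUSG00000053977, chromosome 6, 71350411 to 71356157, plus strand) encodes the alpha chain of the co-receptor of killer T cells. It had 8.44, 4.03, 7.82 and 5.52 normalized counts in NCD-fed WT mice and 11.3, 1.69, 9.52, 7.11 and 4.08 in SSD-fed WT mice. Among KO mice on NCD the values were 1.15, 2.49, 7.46 and 3.69, of which 3 of 4 were at the floor, and in SSD-fed KO mice 6.76, 7.23 and 6.86. The groups overlapped in each comparison. The log2 fold change on SSD was -0.09 in WT mice (SE 0.46, limma adjusted p = 0.897) and 0.94 in KO mice (SE 0.50, limma adjusted p = 0.196), both with a minimum mean of 1. In WT mice the group means ran the other way, at 6.45 on NCD and 6.74 on SSD. The sign of the WT value rests on SSD-fed WT replicate 2, the lowest, which had 2 reads.

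**Figure D2:**
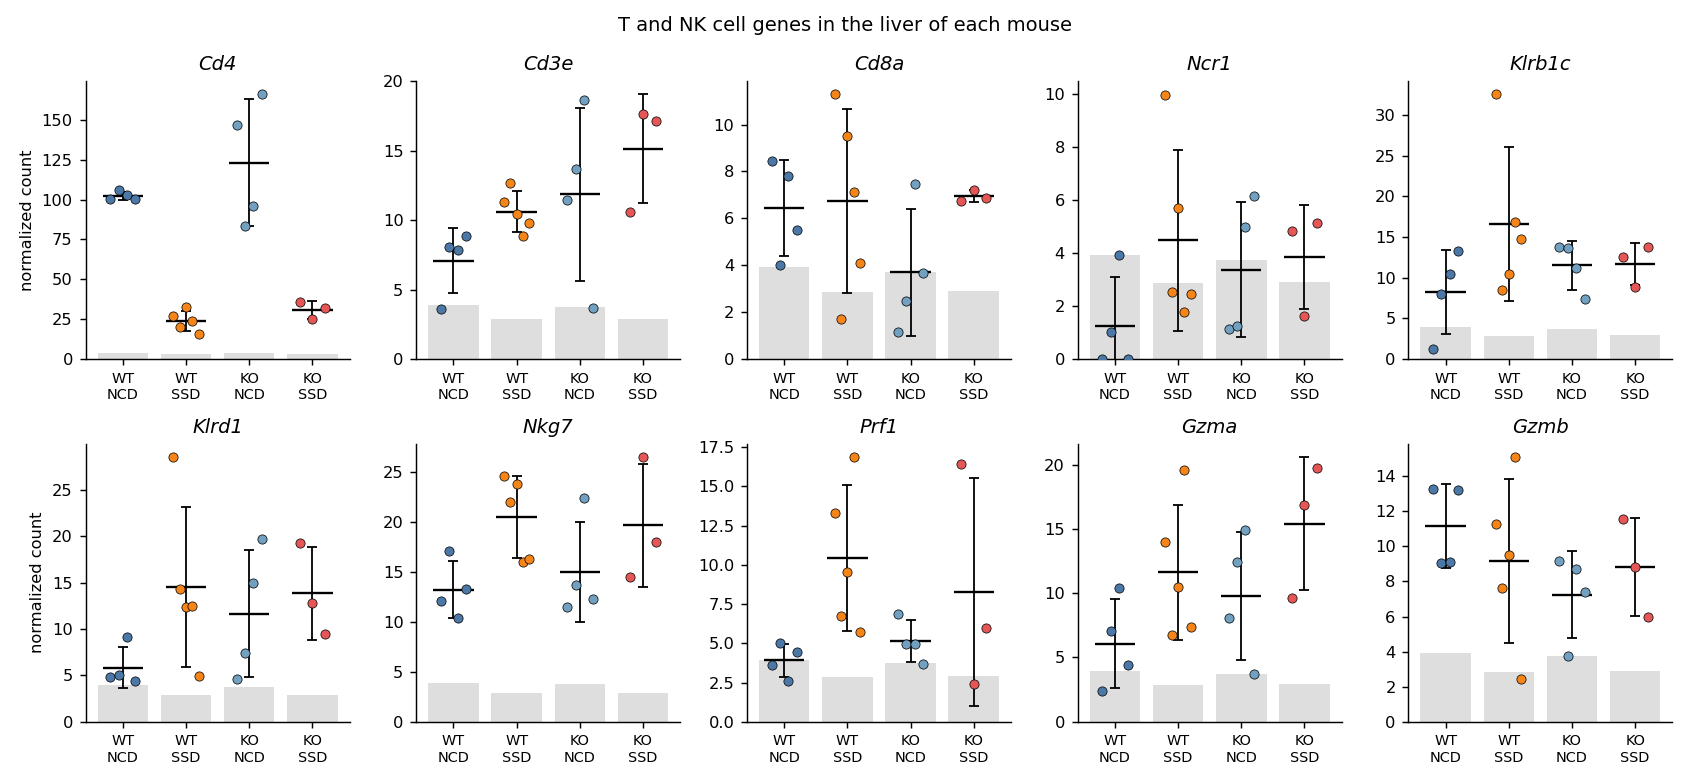
Normalized count (vertical axis, from 0) of each gene in every mouse, by genotype and diet. Points are mice, lines are means with SD, cut off at 0, and the grey band reaches up to the highest 3-read floor among the mice of a group. Cd4 separates the diets in both genotypes, whereas several of the other genes lie within a few reads of the floor.

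Among the receptors of NK cells, Klrd1 (ENSMUSG00000030165, chromosome 6, 129568745 to 129575738, plus strand) encodes CD94, the partner of NKG2 receptors other than NKG2D. It lies close to the deleted Klrk1. WT mice on NCD had 4.82, 5.03, 9.12 and 4.41 normalized counts, and SSD-fed WT mice 28.6, 14.4, 12.4, 12.4 and 4.90. In SSD-fed WT mice 4 of 5 lay above all NCD-fed WT mice, and replicate 1, the mouse with the highest leukocyte list, was the highest. KO mice on NCD had 4.595, 7.47, 14.9 and 19.7, and SSD-fed KO mice 19.3, 12.8 and 9.43, so the KO diet groups overlapped. All 16 mice were above the floor.

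In WT mice the log2 fold change of Klrd1 was 1.05 (SE 0.47, limma adjusted p = 0.0994), and the exact two-sided permutation test gave p = 0.0476. It was not called, but passed the thresholds without SSD-fed WT replicate 5, at 1.35 (limma adjusted p = 0.0261), and with every library scaled to the same total, at 1.35 (limma adjusted p = 0.0319). Without SSD-fed WT replicates 1 and 4 the difference was 0.69, and its exact permutation p was 0.171. Klrd1 did not pass the test between KO and WT mice, at 0.06 on SSD (SE 0.49, limma adjusted p = 0.953, from -0.24 to 0.34 with each mouse left out in turn) and at 0.75 on NCD with a minimum mean of 1 (SE 0.44, limma adjusted p = 0.291). The NCD value leans on NCD-fed KO replicate 4, the highest of its group at 19.7 normalized counts, and would be smaller without it. Klrk1, close to it on the chromosome, was lower in KO mice by a log2 fold change of -3.90 on SSD and -2.40 on NCD.

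Klrb1c (ENSMUSG00000030325, chromosome 6, 128755448 to 128766178, minus strand) encodes NK1.1, the surface marker by which NK cells of this strain are commonly sorted. NCD-fed WT mice had 1.21, 8.05, 10.4 and 13.2 normalized counts, and SSD-fed WT mice 32.5, 8.45, 10.5, 16.9 and 14.7. NCD-fed KO mice had 13.8, 13.7, 11.2 and 7.38, and SSD-fed KO mice 12.6, 8.83 and 13.7. SSD-fed WT replicate 1 stood well above all other mice. The log2 fold change on SSD was 1.08 in WT mice (SE 0.57, limma adjusted p = 0.159), and 0.81 without that mouse (limma adjusted p = 0.282). Without NCD-fed WT replicate 1, which had 1 read, it was 0.48 (limma adjusted p = 0.432), and with quantile normalization 0.47 (limma adjusted p = 0.468). In KO mice it was 0.04 (SE 0.36, limma adjusted p = 0.948), and from -0.14 to 0.21 with each mouse left out in turn. In a later GENCODE release, 413 of the 3194 exonic bases of Klrb1c are shared with Gm44511 on the same strand, so how reads there were assigned is uncertain.

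Ncr1 (ENSMUSG00000062524, chromosome 7, 4340723 to 4348163, plus strand) encodes NKp46, an activating receptor found on NK cells and some innate lymphoid cells. It had 57 reads in all over the 16 mice, and 10 mice were at the floor. In WT mice on NCD the values were 0, 1, 3 and 0 reads, and in SSD-fed WT mice 15, 3, 6, 2 and 3. In NCD-fed KO mice the values were 1, 1, 4 and 5 reads, and in SSD-fed KO mice 5, 2 and 6. All NCD-fed WT mice were thus at the floor, and a count of 0 allows up to 3 reads, so a level below that could not be told from none. With a minimum mean of 1, the log2 fold change on SSD in WT mice was 1.43 (SE 0.59, limma adjusted p = 0.0846), a value that depends on the pseudocount and rose to 1.92 without NCD-fed WT replicate 3 (exact permutation test, p = 0.0357).

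Among the genes of the killing machinery, Prf1 (ENSMUSG00000037202, chromosome 10, 61133612 to 61140459, plus strand) encodes perforin, which opens pores in the target cell. WT mice on NCD had 3.62, 5.03, 2.61 and 4.41 normalized counts, from 2 to 5 reads, and SSD-fed WT mice 13.3, 6.76, 9.52, 16.9 and 5.72, from 7 to 20 reads. The WT diet groups did not overlap. Among KO mice on NCD the values were 6.89, 4.98, 4.97 and 3.69, and in SSD-fed KO mice 16.4, 2.41 and 6.0, with the lowest at the floor. The KO diet groups overlapped, and SSD-fed KO mice lay both above and below all NCD-fed KO mice.

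Over the WT mice Prf1 was under the minimum mean. With a minimum mean of 1 it was called higher on SSD, at a log2 fold change of 1.15 (SE 0.37, limma adjusted p = 0.0338), among 11% of 15526 genes called higher in that model, and the exact two-sided permutation test gave p = 0.0159. DESeq2 on the recovered reads without a minimum mean did not call it, at an adjusted p of 0.0615. Without SSD-fed WT replicates 1 and 4 the log2 difference was 0.76. Its exact permutation test gave p = 0.0571, the smallest that 3 mice against 4 allow. Leaving mice out of groups without overlap cannot create overlap, so that p was fixed beforehand. In KO mice the log2 fold change was 0.31 (SE 0.52, limma adjusted p = 0.718). Its sign rests on SSD-fed KO replicate 1, at 16.4 normalized counts, without which it would turn.

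The promoters of Prf1 and Cd3e are shown because these 2 genes, like Cd4, had WT diet groups that did not overlap. They are RefSeq sequences on GRCm38.p6, from 250 bases before to 50 bases after the start of the gene, which were at hand for 8 of the 10 genes. Cd4 and Klrd1 are the others. Capitals mark matches, on either strand, to the letters TGTGGT of the RUNX core, CAGCTG of an E-box, or GGAAGT of the ETS core.
Prf1, chr10:61297586-61297885, plus strand: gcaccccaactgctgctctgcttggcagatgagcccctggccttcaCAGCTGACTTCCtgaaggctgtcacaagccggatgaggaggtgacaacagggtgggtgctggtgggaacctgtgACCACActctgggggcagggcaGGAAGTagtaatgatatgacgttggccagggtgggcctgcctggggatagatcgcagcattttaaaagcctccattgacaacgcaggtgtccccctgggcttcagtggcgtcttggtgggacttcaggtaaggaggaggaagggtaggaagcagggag
Cd3e, chr9:45009562-45009861, minus strand: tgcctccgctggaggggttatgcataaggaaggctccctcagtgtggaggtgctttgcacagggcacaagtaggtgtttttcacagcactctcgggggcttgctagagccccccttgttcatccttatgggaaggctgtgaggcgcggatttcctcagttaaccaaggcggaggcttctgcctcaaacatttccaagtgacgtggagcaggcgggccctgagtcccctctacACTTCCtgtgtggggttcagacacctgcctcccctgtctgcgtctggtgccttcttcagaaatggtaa
In Prf1 the E-box letters directly adjoin an ETS match, with no base shared. TGTGGT was found in 6 of the 8 genes, against 16.8% of 32851 promoters of this length, CAGCTG in 2 (16.3%), and GGAAGT in 3 (23.8%). GGTGTGA, letters of a T-box site, was found in Nkg7 only (3.98%), and the TATA box letters TATAAA in none (13.6%). A match describes letters in this window and no binding was measured.

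Nkg7 (ENSMUSG00000004612, chromosome 7, 43086497 to 43087673, plus strand) encodes a granule membrane protein of NK cells and killer T cells and was the most abundant of the killer cell genes per kilobase. NCD-fed WT mice had 12.1, 17.1, 10.4 and 13.2 normalized counts, and SSD-fed WT mice 24.6, 22.0, 23.8, 15.99 and 16.3. In SSD-fed WT mice 3 of 5 lay above all NCD-fed WT mice. KO mice on NCD had 11.5, 13.7, 22.4 and 12.3, and SSD-fed KO mice 14.5, 26.5 and 18. The log2 fold change on SSD was 0.60 in WT mice (SE 0.27, limma adjusted p = 0.108) and 0.38 in KO mice (SE 0.33, limma adjusted p = 0.425). With each mouse left out in turn the KO value ranged from 0.15, without SSD-fed KO replicate 2, to 0.58, without NCD-fed KO replicate 3. For the WT mice the permutation test, exact and two-sided, gave p = 0.0476.

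With every library scaled to the same total, Nkg7 passed the thresholds in WT mice, at 0.92 (limma adjusted p = 0.0179). That scaling moved the all-gene median (log2) in WT mice from -0.0015 to 0.34, so the value of Nkg7 is to be read against that shift. With quantile normalization Nkg7 was at 0.16 (limma adjusted p = 0.668) and Klrd1 at 0.53 (limma adjusted p = 0.335).

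Gzma (ENSMUSG00000023132, chromosome 13, 113230359 to 113237515, minus strand) encodes granzyme A, a protease of the granules. It had 2.41, 7.05, 10.4 and 4.41 normalized counts in NCD-fed WT mice and 13.9, 6.76, 10.5, 19.5 and 7.35 in SSD-fed WT mice. NCD-fed KO mice had 8.04, 12.4, 14.9 and 3.69, and SSD-fed KO mice 9.66, 16.9 and 19.7. The groups overlapped on either genotype. The log2 fold change on SSD was 0.88 in WT mice with a minimum mean of 1 (SE 0.42, limma adjusted p = 0.136) and 0.69 in KO mice (SE 0.46, limma adjusted p = 0.283). The WT value would be smaller without NCD-fed WT replicate 1, which was at the floor with 2 reads. The KO value was 0.34 without NCD-fed KO replicate 4, the mouse at the floor, and reached 0.98 with another mouse left out.

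Gzmb (ENSMUSG00000015437, chromosome 14, 56496295 to 56499717, minus strand) encodes granzyme B, the granule protease that triggers death of the target cell. In WT mice on NCD the values were 13.3, 9.06, 9.12 and 13.2 normalized counts, and in SSD-fed WT mice 11.3, 7.60, 9.52, 15.1 and 2.45. In NCD-fed KO mice the values were 9.19, 3.73, 8.71 and 7.38, and in SSD-fed KO mice 11.6, 8.83 and 6.0. It was the one granule gene whose mean was not higher on SSD in WT mice, with a log2 fold change of -0.40 (SE 0.46, limma adjusted p = 0.524). SSD-fed WT replicate 5, at 3 reads, was the lowest, and without it the value was -0.05 (limma adjusted p = 0.928), while with quantile normalization it was -0.96 (limma adjusted p = 0.127). In KO mice the log2 fold change was 0.27 with a minimum mean of 1 (SE 0.40, limma adjusted p = 0.676). That value rests on NCD-fed KO replicate 2, the lowest of its group, which was at the floor with 3 reads.

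**Figure D3:**
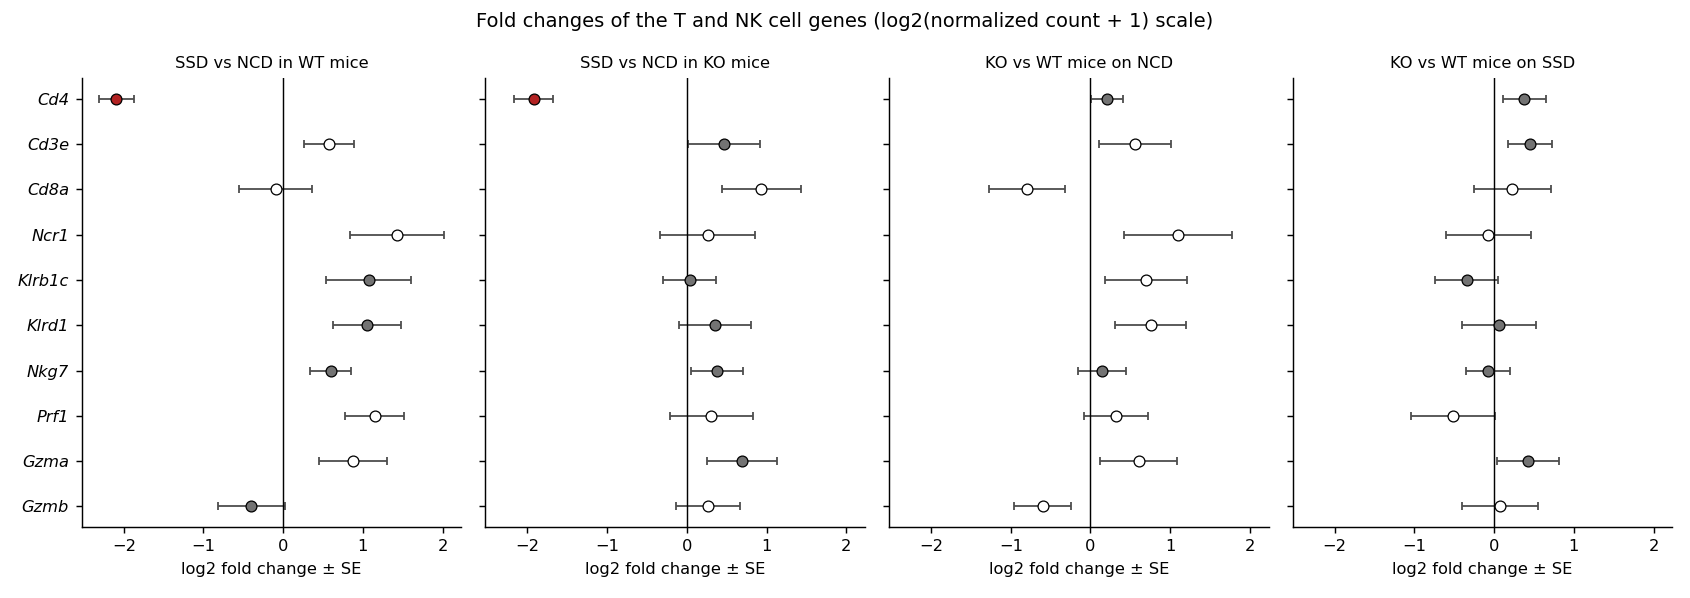
Log2 fold change with standard error of each gene (horizontal axis, on the log2(normalized count + 1) scale, limma with a minimum mean of 1) in the 4 comparisons. Red points passed the thresholds in the test with a minimum mean of 10, grey points were tested there and did not, and white points were under that minimum. Red appears for Cd4 in the comparisons of diets, at -2.09 in WT and -1.92 in KO mice.

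Counted over the 10 genes, the diet comparison in WT mice tested 5 with the minimum mean of 10 and called 1 lower and 0 higher, with 3 at an unadjusted p under 0.05. Of all 13091 genes tested, 19.3% were called, 7.32% lower and 11.9% higher. The median log2 fold change of the 5 was 0.60, against -0.0015 over all genes. WT diet groups were free of overlap for 3 of the 10 genes, against 25.6% of the 15526 genes with a mean of at least 1. In KO mice 6 genes were tested and 1 was called lower and 0 higher, with 1 at an unadjusted p under 0.05, against 13.1% of 12904 genes called, 6.6% lower and 6.54% higher. Their median was 0.37, against -0.0020 over all genes. KO diet groups were free of overlap for 1 of the 10, against 33.3% of all genes. The shares called were near the background in both genotypes, and the share of genes without overlap in KO mice was below it.

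Between KO and WT mice the numbers were lower still. On SSD, limma tested 6 of the 10 genes and called 0, with 0 at an unadjusted p under 0.05, and edgeR and DESeq2 also called 0, where 2.13% of all 13116 genes were called. On NCD, limma tested 2 and called 0, with 0 at an unadjusted p under 0.05 and 0 by edgeR or DESeq2, against 5.79% of 12845 genes. Genotypes were free of overlap for 0 of the 10 on SSD and 0 on NCD, against 16.2% and 16.9% of all genes. The interaction was called for 0 of 6 tested genes by limma, edgeR and DESeq2, with 0 at an unadjusted p under 0.05, against 0.849% of 13068 genes. Of the 40 exact permutation tests of the 10 genes in the 4 comparisons, 5 gave an unadjusted p under 0.05, all for diet in WT mice, and these are not adjusted for their number.

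The interaction estimates of single genes were wide. Klrb1c had -1.04 (SE 0.73, limma adjusted p = 0.477), Klrd1 -0.69 (SE 0.69, limma adjusted p = 0.632) and Cd3e -0.10 (SE 0.58, limma adjusted p = 0.942). None passed the test. With each mouse left out in turn, Klrb1c ranged from -1.34 to -0.45 (without NCD-fed WT replicate 1), Klrd1 from -1.02 to -0.39 (without NCD-fed KO replicate 4) and Cd3e from -0.53 (without the same mouse) to 0.16.

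A list of 19 other genes of the T cell receptor and its signaling was examined beside Cd4. In WT mice 10 of them were tested, 4 were called higher on SSD, 1 lower, and 5 were not called. Of all 13091 genes 11.9% were called higher and 7.32% lower, which also applies to the lists below. For diet in KO mice these shares were 6.54% and 6.6%. Between genotypes 2.13% of all genes were called on SSD and 5.79% on NCD. The median log2 fold change of the list was 0.61. Zap70, the kinase that binds the activated CD3 and zeta chains, fell. It had 201, 156, 202 and 164 normalized counts in NCD-fed and 62.4, 42.2, 41.9, 38.2 and 73.5 in SSD-fed WT mice. In KO mice it had 190, 230, 169 and 234 on NCD and 74.4, 82.7 and 80.6 on SSD. Per kilobase, Zap70 had 129 to 167 normalized counts in NCD-fed WT mice, where Cd3e had 2.94 to 7.17. Which cells held the Zap70 RNA was not tested. The diets did not overlap in either genotype, and the log2 fold change of Zap70 was -1.83 in WT mice (SE 0.20, limma adjusted p = 5.55e-05) and -1.35 in KO mice (SE 0.14, limma adjusted p = 3.78e-05).

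The genes of the list called higher in WT mice were Tcf7, a transcription factor of naive and memory T cells, Lck, the kinase bound to CD4 and CD8, Trac, the constant part of the alpha chain of the receptor, and the co-stimulatory receptor Icos. Tcf7 went from 67.2 ± 7.27 (SD, n = 4) to 105 ± 11.9 (SD, n = 5), a log2 fold change of 0.64 (SE 0.14, limma adjusted p = 0.0052). It was called in 20 of 24 settings, and also higher in KO mice, at 0.88 (SE 0.20, limma adjusted p = 0.00637). Lck had a log2 fold change of 0.88 in WT mice (limma adjusted p = 0.0187), Trac 0.99 (limma adjusted p = 0.0398) and Icos 0.83 (limma adjusted p = 0.0365), and Trac and Icos were called in 12 of 23 settings each. In KO mice 9 genes of the list were tested, with Tcf7 higher and Zap70 lower. Trac was not called there, at -0.22 (SE 0.31, limma adjusted p = 0.633). Between KO and WT mice limma called 0 of 11 on SSD, with 1 at an unadjusted p under 0.05, and 0 of 8 on NCD, with 0 so, and edgeR and DESeq2 called 0 in both.

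Among 14 genes of T cell activation and exhaustion, 6 were tested in WT mice, 3 were called higher, and 1 lower. The higher ones were Il7r, called in 20 of 23 settings, Havcr2 in 16 of 21 and Cxcr3 in 14 of 23. In NCD-fed WT mice Il7r had 0, 5, 6 and 9 reads and Cxcr3 6, 4, 8 and 9. Their fold changes thus rest on few reads, and for Havcr2 the diet groups overlapped. The lower one was Lag3, an inhibitory receptor that binds the same partner as CD4 and lies beside Cd4 on chromosome 6. Lag3 had 65.1, 43.3, 48.2 and 45.2 normalized counts in NCD-fed and 23.2, 25.3, 23.8, 29.3 and 29.4 in SSD-fed WT mice. In KO mice it had 73.5, 51.0, 68.4 and 50.4 on NCD and 25.1, 16.9 and 29.1 on SSD. Per kilobase, Lag3 had 35.7 to 53.6 normalized counts in NCD-fed WT mice, also above Cd3e (2.94 to 7.17). Which cells held the Lag3 RNA was not tested. The diets did not overlap, and the log2 fold change was -0.91 in WT mice (SE 0.20, limma adjusted p = 0.00458) and -1.34 in KO mice (SE 0.24, limma adjusted p = 0.00168). With every library scaled to the same total, Lag3 fell short of the fold limit in WT mice, at -0.57.

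In KO mice 5 of the 14 genes were tested, with Lag3 lower and Tox, a factor of exhausted T cells, higher. On SSD, Tox was also higher in KO than in WT mice, by a log2 fold change of 1.14 (SE 0.25, limma adjusted p = 0.04), and was called in 15 of 23 settings. Gpr162, the neighbor of Cd4 on its other side, was chosen after its values were seen and was not called, at -0.73 in WT mice (limma adjusted p = 0.175) and -0.27 in KO mice (limma adjusted p = 0.43). In the later GENCODE release the gene model of Cd4 reaches to 124874758, short of Lag3 at 124881320, and shares no exonic base with another gene.

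**Figure D4:**
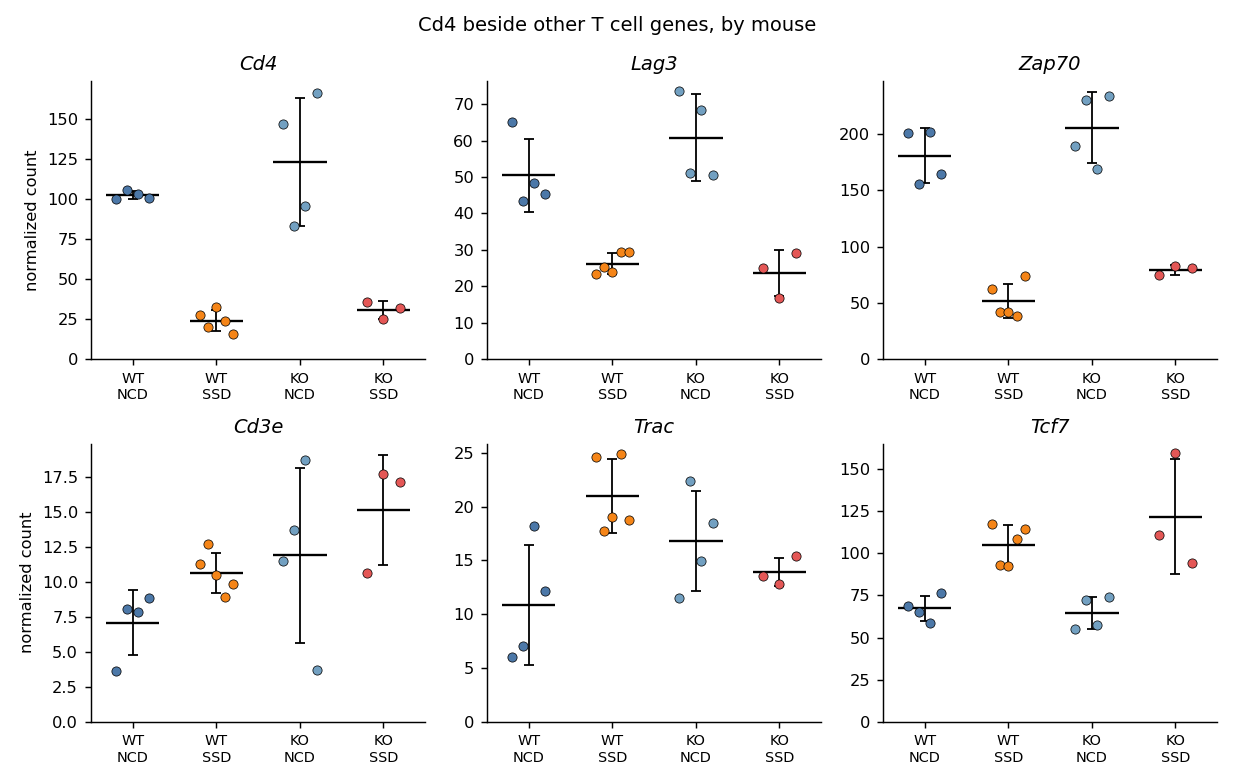
Normalized count (vertical axis, from 0) of Cd4, Lag3 and Zap70 in the upper row and of Cd3e, Trac and Tcf7 in the lower row, by genotype and diet. Points are mice and lines are means with SD. In the upper row every SSD-fed mouse lies below every NCD-fed mouse of its genotype, and in the lower row no mean of the 3 genes is lower on SSD in WT mice, whereas in KO mice that of Trac is (16.8 on NCD and 13.9 on SSD).

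Among 25 other receptors and factors of NK cells, 5 were tested in WT mice and 1 was called higher, Tyrobp, an adaptor that myeloid cells also make (log2 fold change 0.999, SE 0.30, limma adjusted p = 0.0217). In KO mice limma called 0 of 4, with 2 at an unadjusted p under 0.05, and edgeR and DESeq2 0. Among 18 further genes of granules and effectors, 9 were tested in WT mice and 1 was called higher, Srgn, the proteoglycan that packs granules, also made by other leukocytes (log2 fold change 0.75, SE 0.14, limma adjusted p = 0.00174). On SSD it was lower in KO than in WT mice by a log2 fold change of -0.82 (SE 0.16, limma adjusted p = 0.0287), in 18 of 23 settings. Leukocyte markers moved with it in that comparison, with 0 of 8 above 0, a median log2 fold change of -0.77 and 7 at an unadjusted p under 0.05, of which limma and edgeR called 0 and DESeq2 4. The median of 10 macrophage and monocyte genes was -0.78, and Cd68 and Marco were called lower. The part of these cells in the value of Srgn was not tested. Of 9 genes of gamma delta and type 17 T cells in the table, 3 were tested in WT mice and 1 was called higher, Il1r1, the receptor for IL-1, which liver cells also express (1.005, SE 0.21, limma adjusted p = 0.00407). Il17a had 0 reads in each of the 16 mice.

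Of 25 genes of the NK gene complex around Klrk1, which include Klrd1 and Klrb1c, 8 were tested for diet in WT mice, 4 were called higher and 1 lower. Klrk1, the gene of NKG2D, was higher on SSD in WT mice by a log2 fold change of 0.90 (SE 0.27, limma adjusted p = 0.0226), without overlap between the diets, and was called in 16 of 23 settings. The other higher genes were Clec7a (2.21) and Clec12a (1.20), lectin receptors of myeloid cells, and Gabarapl1 (0.73), an autophagy gene. Clec2d, a ligand of an NK cell receptor, was lower, at -1.34. In KO mice 7 were tested, with Clec7a (0.88) and Gabarapl1 (0.81) higher and Clec2d (-0.91) lower. Between genotypes, Klrk1 itself was the one called lower in KO mice on SSD, where 8 were tested, and on NCD, where 6 were tested. DESeq2 called 3 of the 8 on SSD.

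Markers of other cell types moved with diet in WT mice beside these genes. Of the leukocyte list 6 of 8 genes were called higher, of macrophages and monocytes 7 of 10 and of dendritic cells 3 of the 7 tested (Flt3 in 14 of 22 settings, Clec9a in 24 of 24 and Batf3 in 11 of 23), while limma called 0 of 6 for B cells, with 0 at an unadjusted p under 0.05 and 0 by edgeR or DESeq2. Of hepatocyte genes 3 of 7 were called lower (Tat, Serpina1c and Cps1). In KO mice, where Cd4 fell as well, 4 of 7 hepatocyte genes were called lower, with Apoa1 added to these, and 2 of 8 leukocyte genes higher (Itgb2 and Arhgdib). For macrophages and monocytes in KO mice limma called 0 of 10, with 4 at an unadjusted p under 0.05, and edgeR and DESeq2 called 1 each. Of 6 dendritic cell genes limma called 0, with 2 at an unadjusted p under 0.05, edgeR 1 and DESeq2 0, and of 6 B cell genes Blnk was called lower. Of 9 genes of other liver cells, 2 were called higher in WT mice (median log2 fold change 0.48) and 2 in KO mice (0.35). Of 3 neutrophil genes tested, limma, edgeR and DESeq2 called 0 in either genotype, at medians of -0.57 in WT and 0.17 in KO mice. For these, 1 in WT and 0 in KO mice had an unadjusted p under 0.05. The list of dendritic cells summed to 206 to 305 in NCD-fed and 346 to 537 in SSD-fed WT mice, while Cd4 was lower in the latter, and to 295 to 386 and 349.6 to 417 in KO mice. Of 7 genes of lymph node and thymus, 4 were tested in WT mice, and Cxcl13, a chemokine of lymphoid follicles, was called lower along with Cd4, at -1.81 (limma adjusted p = 0.0283), in 18 of 23 settings. In KO mice Cxcl13 (-1.59) and Dntt (-1.69), the terminal transferase of immature lymphocytes, were called lower and Ccl21a (1.39), a lymphatic chemokine, higher. In WT mice Dntt was at -0.69 (limma adjusted p = 0.183). This list summed to 63.4 to 136 in NCD-fed and 48.2 to 139 in SSD-fed WT mice and to 97.2 to 149 and 75.4 to 107 in KO mice, and Rag1 had 0 reads in every mouse. The defining markers of mast cells and basophils summed to at most 13.03 in any mouse. Genes of the mitochondrial chromosome took 7.77% to 11.6% of reads in NCD-fed and 6.90% to 7.94% in SSD-fed WT mice. In KO mice they took 11.9% to 16.8% and 7.66% to 9.06%. The 10 largest genes held 20.8% to 23.6% and 18.4% to 19.4% in WT mice, and 24.1% to 29.1% and 20.1% to 21.4% in KO mice. The part of these cell types and shares in the values of Cd4 and the other T and NK cell genes was not tested.

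The 9 genes other than Cd4 summed to 49.4 to 71.7 normalized counts in NCD-fed WT mice and 67.8 to 157 in SSD-fed WT mice, with replicate 1 at the top and replicate 5 at the bottom, inside the range of the NCD-fed mice. In KO mice they summed to 67.7 to 108 on NCD and 102.0 to 106 on SSD. Set against the leukocyte list, the sum of the 9 came to 4.28% to 5.12% in NCD-fed and 3.37% to 4.56% in SSD-fed WT mice, and to 5.72% to 8.66% in NCD-fed and 6.76% to 7.49% in SSD-fed KO mice. These are descriptions with no test.

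**Figure D5:**
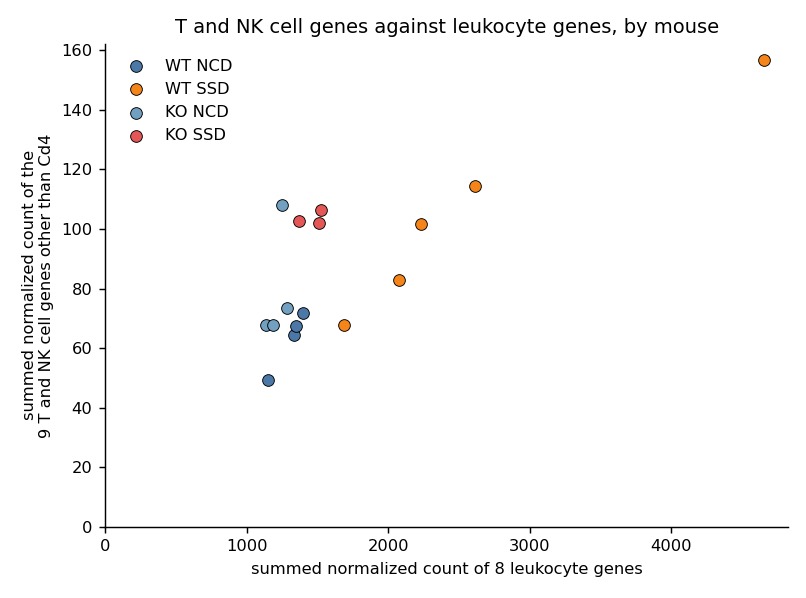
Summed normalized count of the 9 T and NK cell genes other than Cd4 (vertical axis) against the summed normalized count of 8 leukocyte genes (horizontal axis), 1 point per mouse, colored by group. SSD-fed WT replicate 1 lies alone at 4651 and 157, and the SSD-fed KO mice lie at 1372 to 1523 and 102.0 to 106.

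Within the groups the genes did not vary as 1 block. Over the 16 mice, as deviations from the mean of each group, Pearson's r between 2 of the 6 genes with a mean of at least 10 reached 0.68 for Gzma and Cd3e, 0.58 for Klrb1c and Gzma and 0.53 for Nkg7 and Cd3e, whereas Cd3e and Cd4 had -0.50. The points share libraries and rest on few reads, so these are descriptions. The 5 other genes most like the mean of the 6, among 13062 ranked by the same r over 16 mice, were Gbp9 (0.918), Osmr (0.917), Ccdc88c (0.911), Cc2d2a (0.909) and Maml2 (0.906). Being picked as the highest of so many, these values are descriptions too, and the mean of the 6 includes Cd4. The part of SSD-fed WT replicate 1 in them was not tested.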

How the data were processed

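RNA from whole liver of 16 mice was sequenced as 100 base single reads. The authors checked reads with FastQC, aligned them with STAR to GRCm39, counted them per gene with FeatureCounts on GENCODE M26 and used DESeq2. The labels and the methods name different TruSeq kits (mRNA or Total RNA). The deposited signal values are normalized counts, reads divided by 1 factor per sample, and how the factors and gene lengths were derived is not given in the sources used here. Division by the value of 1 read gave whole reads within a tolerance of 0.001 for all values.

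Groups came from the labels. Diets were compared within genotypes and genotypes within diets with limma 3.58.1 (R 4.3.3, trend) on log2(normalized count + 1) over the genes with a mean of at least 10 in the mice compared, with Benjamini-Hochberg adjustment. Calls required an adjusted p under 0.05 together with a fold over 1.5. The interaction used all 16 mice. For genes under that mean, a minimum of 1 was used, with exact two-sided permutation tests. The pseudocount pulls log2 values of low genes together, which understates log-scale differences, and a fitted fold can lie above or below the ratio of group means. The floor was 3 reads, and it covers counting error only. Alternatives were other pseudocounts, filters and scalings, a replicate block, edgeR 4.0.16 and DESeq2 1.42.0 on the recovered reads, and each mouse left out. The fits were tested on simulated data, with the same dispersion in every gene and changes placed in genes with a mean of at least 10. No mouse that stood apart in many genes was simulated. The shares below may thus not hold for genes near or under that mean, where many of the 10 genes lie. Changes of log2 size 1 were recovered at 72.7% for diet in WT mice and 59.1% in KO mice. Between genotypes the shares were 75% on SSD and 62.1% on NCD, and for the interaction 19.4%. Changes of log2 size 2 were recovered at 96.9% to 100%. A change of log2 size 1 can thus go uncalled. The 10 genes, chosen by name and all reported, and the other lists were chosen with earlier results of these data known. Of the other lists, some called genes are named and the rest are given as counts. Each replicate is 1 mouse.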

Additional observations from a re-analysis of the deposited data

Results flagged for a closer look

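Klrd1 in NCD-fed WT mice had 1 mouse, replicate 3, apart from the other 3. It had 9.12 normalized counts where the next mouse had 5.03, a gap of 0.868 of the whole range of the group. Of the 30 sets of a gene in a group that were examined, chance alone would set apart about 1 in 20.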

How the results depend on the processing

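The number of the 10 genes called higher on SSD in WT mice moved from 0 to 1 with a minimum mean of 1 (Prf1), to 1 with no minimum mean, and to 2 with the same total per sample (Klrd1 and Nkg7). It ranged from 0 to 1 when each mouse was left out in turn, and the 1 was Klrd1 without SSD-fed WT replicate 5. The causes were not tested, except that the lower minimum admits more genes. No value changed direction among called results. The fit with the replicate number as a block kept only the mice whose number occurs in each group compared. Between genotypes on SSD, for example, it left out WT replicates 4 and 5. In that fit Cd4 had a log2 fold change of -2.11 in WT mice (limma adjusted p = 0.00103) and -1.76 in KO mice (limma adjusted p = 0.000453). The block called 1962 genes in place of 2522 for diet in WT mice, 595 in place of 279 between genotypes on SSD, 1129 in place of 744 on NCD and 51 in place of 111 for the interaction. These counts differ from the main fit by the mice left out as well as by the block. Mice that shared a number correlated at -0.133 to 0.246. For diet in WT mice these values ran from -0.133 to -0.0398, and no mouse was best matched by its own number. Between genotypes on SSD they were 0.141, -0.0257 and 0.246, and for diet in KO mice 0.132, 0.104 and -0.0165. In these 2 comparisons the positive values were also the best matches. Whether the numbers mark a pairing or a shared batch was not tested further. DESeq2 called 669 genes between genotypes on SSD. Scaling to the same total called 3467 genes higher and 409 lower in WT mice, against 1564 and 958, and 2122 and 480 in KO mice, against 844 and 852, and moved the all-gene median (log2) to 0.25 in KO mice and to -0.11 between genotypes on SSD. Without SSD-fed WT replicates 1 and 4, an alternative chosen after seeing the data, Cd4 was at -2.18. Depth limits Ncr1, Prf1 and Cd8a most. In KO mice the smallest permutation p for diet is 0.0571.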
